A study of Homo sapiens with 3 samples.

Results

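The 10 genes described here are the FOS family (FOS, FOSB, FOSL1 and FOSL2), the JUN family (JUN, JUNB and JUND), and 3 related genes of the basic leucine zipper (bZIP) class, ATF3, BATF3 and MAFF. They were taken by name out of 48162 genes listed in each of 3 libraries, with Ensembl identifiers matched to symbols in GENCODE 29, and all 10 were found. The libraries came from MDA-MB-231, an established human line of triple-negative breast cancer, with 1 library per group. The groups were control cells, cells depleted of FoxO3, and cells depleted of Geminin together with FoxO3, called co-depletion here. All 3 cultures were grown in medium with 10% fetal bovine serum, exposed to lentivirus for 24 hours, given new medium and collected 72 hours after that. The sources used here name neither the content of the control virus nor the sequences used for depletion, and whether separate clones or pools of cells were used is not stated in them.

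AP-1 is a family of dimers that bind DNA through a basic region next to a leucine zipper. JUN proteins pair with each other or with FOS proteins, while FOS proteins need a JUN partner, and the dimers bind the sequence TGACTCA or, with ATF partners, the related TGACGTCA. MAP kinases raise both the transcription and the activity of several subunits after serum, growth factors, cytokines or stress, and in triple-negative breast cancer cells FRA-1, the product of FOSL1, is known as an abundant subunit linked to the mesenchymal and invasive state. FoxO3 is a forkhead transcription factor restrained by AKT. Geminin, the product of GMNN, blocks relicensing of replicated DNA.

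Promoter sequence is shown because several AP-1 genes are known to be regulated by bZIP dimers themselves. The 5 members shown are those with a match to a searched motif. They ranged from below to well above their control level in the depleted libraries. RefSeq (GRCh38.p14) gave promoter entries for 8 of the 10 genes, 10 windows in all since ATF3 and MAFF have more than 1 start. Each window holds the 250 bases before a transcription start, written 5′ to 3′ on the gene's strand, with matches to the searched motifs in capitals. For ATF3 and MAFF the first of the RefSeq starts is shown, and the starts used for ATF3 may not include every known one.
JUN, chr1:58784048-58784297, minus strand: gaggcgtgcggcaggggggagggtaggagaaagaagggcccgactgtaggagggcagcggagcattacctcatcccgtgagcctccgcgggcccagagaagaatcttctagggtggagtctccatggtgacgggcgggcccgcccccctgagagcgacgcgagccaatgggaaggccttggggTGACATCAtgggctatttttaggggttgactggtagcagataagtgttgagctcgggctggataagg
JUNB, chr19:12791236-12791485, plus strand: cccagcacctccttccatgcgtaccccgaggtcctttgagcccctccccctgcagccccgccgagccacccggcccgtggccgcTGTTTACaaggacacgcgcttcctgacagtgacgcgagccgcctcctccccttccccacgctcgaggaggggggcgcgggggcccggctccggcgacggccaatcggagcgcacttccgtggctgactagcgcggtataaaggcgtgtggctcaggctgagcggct
JUND, chr19:18281623-18281872, minus strand: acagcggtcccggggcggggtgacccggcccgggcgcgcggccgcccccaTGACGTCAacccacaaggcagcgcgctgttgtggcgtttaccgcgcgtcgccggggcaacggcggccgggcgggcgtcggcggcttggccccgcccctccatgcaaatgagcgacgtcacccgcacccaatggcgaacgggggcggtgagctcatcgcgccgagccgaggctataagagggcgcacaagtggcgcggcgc
ATF3, chr1:212565157-212565406, plus strand: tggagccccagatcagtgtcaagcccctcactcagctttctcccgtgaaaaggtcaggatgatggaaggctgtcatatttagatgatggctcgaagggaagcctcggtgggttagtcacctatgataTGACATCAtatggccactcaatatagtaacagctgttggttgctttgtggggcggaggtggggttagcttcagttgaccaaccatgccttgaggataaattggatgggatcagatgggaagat
MAFF, chr22:38201744-38201993, plus strand: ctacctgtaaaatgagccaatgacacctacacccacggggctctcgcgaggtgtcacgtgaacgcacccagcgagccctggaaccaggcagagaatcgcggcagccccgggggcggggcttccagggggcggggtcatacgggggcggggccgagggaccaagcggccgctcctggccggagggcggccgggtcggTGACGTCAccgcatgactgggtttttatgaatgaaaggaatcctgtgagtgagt
The motifs were searched on both strands. TGACGTCA, the cyclic AMP response element that ATF and CREB proteins bind, was found in 2 of the 10 windows, those of JUND (200 to 193 bases before the start) and MAFF (54 to 47), and in 1.65% of 35116 RefSeq promoter windows of this length. TGACATCA, a variant site added to the search after the sequences had been seen, was found in JUN (67 to 60) and ATF3 (123 to 116), and in 2.37% of all windows. TGTTTAC, a core that FoxO proteins bind, was found in JUNB (166 to 160) and in 2.98% of all windows. The strict AP-1 site TGACTCA was in 0 of the 10 windows and 4.2% of all, and the CArG box of serum response factor in 0 of the 10 and 1.16% of all. The NF-kB site was in the second MAFF window and in 5.21% of all windows. No match was found in 4 of the 10 windows, those of FOS, FOSB and FOSL2 and the second of ATF3, which are not shown. These matches describe letters in short windows and carry no information on binding in these cells.

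Read totals behind the values, inferred from the FPKM, ran from 10760613 to 14507410 per library. FPKM is fragments per kilobase of transcript, scaled to the size of the library. FOXO3 stood at 12.2 FPKM in the control, 2.79 after FoxO3 depletion and 2.94 after co-depletion, and GMNN at 112.3, 112.2 and 37.0, so each targeted gene was low in the libraries labelled for it. Of 5 markers of MDA-MB-231 all 5 had a mean above 1 FPKM. VIM stood between 574.3 and 607.4 FPKM, while CD44 (630.8, 935.2 and 903.6 in the order control, FoxO3 depletion, co-depletion) and KRT18 (117.9, 202.1 and 182.0) were lowest in the control. EGFR (146.5, 137.5 and 127.8) and LAPTM5 (66.5, 59.3 and 56.9) were highest there. Of 4 genes listed as low in the line, ESR1, the oestrogen receptor gene, stood between 0.04 and 0.12 FPKM. The epithelial gene EPCAM, at 13.8, 9.80 and 8.95, made up most of a summed level of 14.2, 10.9 and 9.64. CDH1 was lowest in the control, at 0.42, 1.02 and 0.58. Fibroblast markers moved with the groups: the sum over 5 of them was 20.0 FPKM in the control, 40.5 after FoxO3 depletion and 39.1 after co-depletion, through COL1A1 and PDGFRB, while the highest value of DCN, LUM and COL3A1 in any library was 0.36.  The 5 leukocyte markers summed to 8.45, 8.60 and 9.91 FPKM, mostly through CD14 at 6.76, 8.09 and 8.59, with CD3E listed at 0. The 3 listed markers of HEK293, a packaging line for lentivirus, summed to between 0.02 and 0.03 FPKM. The part of these marker genes in the results below was not tested. In bulk RNA, fewer cells with a transcript and less transcript per cell cannot be told apart.

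Each group holds 1 library, so differences lack a replicate check and carry no p-value. Intervals below are exact 95% Clopper-Pearson intervals on whole reads recovered from the FPKM values. They cover counting error only and compare libraries, not conditions. Ratios marked log2 are of FPKM + 1, and a gene is called higher or lower at 1.5-fold on that scale.

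FOSL1 was the most abundant member, and FOS and FOSB the scarcest, in every library. In the control the order by FPKM was FOSL1, FOSL2, JUND, JUN, MAFF, JUNB, BATF3, ATF3, FOS and FOSB. The counting intervals of neighbours overlapped there only for BATF3 and ATF3, at 6.37 to 8.89 and 5.68 to 8.18 FPKM. The order in both depleted libraries was the same except that ATF3 stood above BATF3, and the intervals of FOSL2 and JUND overlapped after FoxO3 depletion on the smallest whole reads. Levels of different genes depend on the transcript length used, and the length implied by the FPKM and the recovered reads was 1202 bases for FOSL1 and 1219 for ATF3, against mean GENCODE 29 transcripts of 1202 and 1236. For JUN and JUND the smallest whole reads imply lengths of 1107 and 197.5 bases against mean transcripts of 3540 and 1181.5, and true reads can be a multiple of the recovered ones. At the multiples nearest to the GENCODE lengths, 3 for JUN and 6 for JUND, a choice made after the data were seen, the intervals are narrower and JUND, at 116.3 to 128.6 FPKM after FoxO3 depletion, does not overlap FOSL2, at 129.9 to 138.0.

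**Figure D1:**
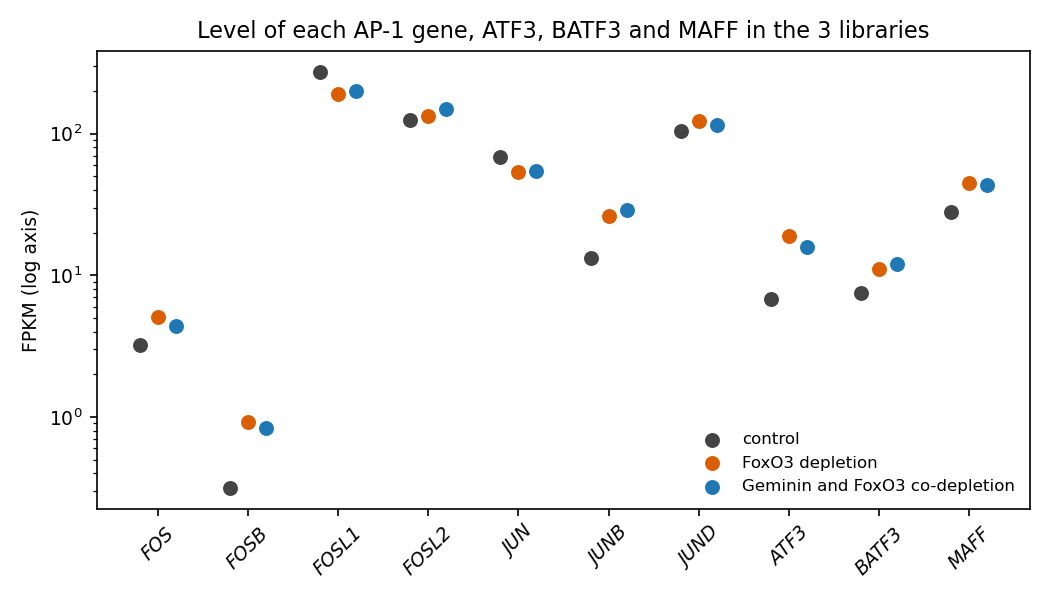
FPKM (log axis) of the 10 genes in the 3 libraries, 1 point per library. FOSL1 and JUN are highest in the control, whereas the other members are lowest there.

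FOSL1 and FOSL2 made up nearly all FOS-family RNA, and neither passed the 1.5-fold rule in any comparison before GC adjustment. FOSL1, whose product FRA-1 lacks the strong activation domain of FOS, stood at 273.9 FPKM in the control, 191.4 after FoxO3 depletion and 198.5 after co-depletion. The control was the high library and the depleted libraries lay close together. As a share of its control level FOSL1 was at 69.9% after FoxO3 depletion (counting interval 66.5% to 73.4%). The share after co-depletion was 72.5% (69.2% to 75.9%). Its log2 ratios were -0.51 and -0.46. FOSL2, which encodes FRA-2, a close relative of FRA-1, stood at 125.5, 133.9 and 148.9 FPKM in the same order of libraries. It was highest after co-depletion, at 118.6% of control (114.2% to 123.2%), and at 106.7% (102.5% to 111.1%) after FoxO3 depletion. After adjustment for GC content its log2 ratio after FoxO3 depletion went from 0.09 to -0.01, so that small excess has no stable sign.

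FOS and FOSB, the serum-inducible members that are made transiently after stimulation, were scarce in all 3 cultures. FOS stood at 3.24 FPKM in the control, 5.11 after FoxO3 depletion and 4.40 after co-depletion, from 47, 55 and 54 recovered reads. Both depleted libraries were above the control, at a ratio of 1.58 (1.05 to 2.38) and 1.36 (0.90 to 2.05), and the second interval includes 1. FOSB stood at 0.31, 0.92 and 0.84 FPKM, from 12, 26 and 27 reads. Its mean was below 1 FPKM, so it was left out of the counts, and its ratios of 2.92 (1.42 to 6.35) and 2.66 (1.30 to 5.77) rest on few reads.

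In the JUN family only JUNB passed the 1.5-fold rule, upward in both depleted libraries. JUN had log2 ratios of -0.35 and -0.34 and JUND of 0.22 and 0.13. JUNB, a JUN relative that activates some AP-1 targets weakly and can oppose JUN, stood at 13.3 FPKM in the control, 26.3 after FoxO3 depletion and 28.8 after co-depletion. The control was the low library. The ratio to control was 1.98 (1.73 to 2.27) after FoxO3 depletion. After co-depletion it was 2.17 (1.90 to 2.47). JUNB shares exon sequence on the opposite strand with HOOK2 in GENCODE 29, and the strand setting of the counting is not given, so reads of the pair cannot be told apart. HOOK2 went the other way, at 16.2, 8.63 and 11.6 FPKM.

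JUN, the strongest activator of the family and a gene that its own product regulates, stood at 68.8 FPKM in the control, 53.9 after FoxO3 depletion and 54.2 after co-depletion. The control was the high library, as for FOSL1. JUN was at 78.3% of control (71.0% to 86.4%) and 78.8% (71.7% to 86.5%). JUND, a subunit that most cells make constitutively, stood at 105.1, 122.3 and 115.2 FPKM, with ratios of 1.16 (0.98 to 1.38) and 1.1 (0.93 to 1.29) on the smallest whole reads. With 6 times those reads, which brings its implied length to 1185 bases, the intervals are 108.8% to 124.7% and 102.5% to 117.2% of control and lie above it, so whether JUND differed beyond counting error depends on the reads behind it. The ratio of JUN to JUNB FPKM was 5.18 in the control, 2.05 after FoxO3 depletion and 1.88 after co-depletion.

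**Figure D2:**
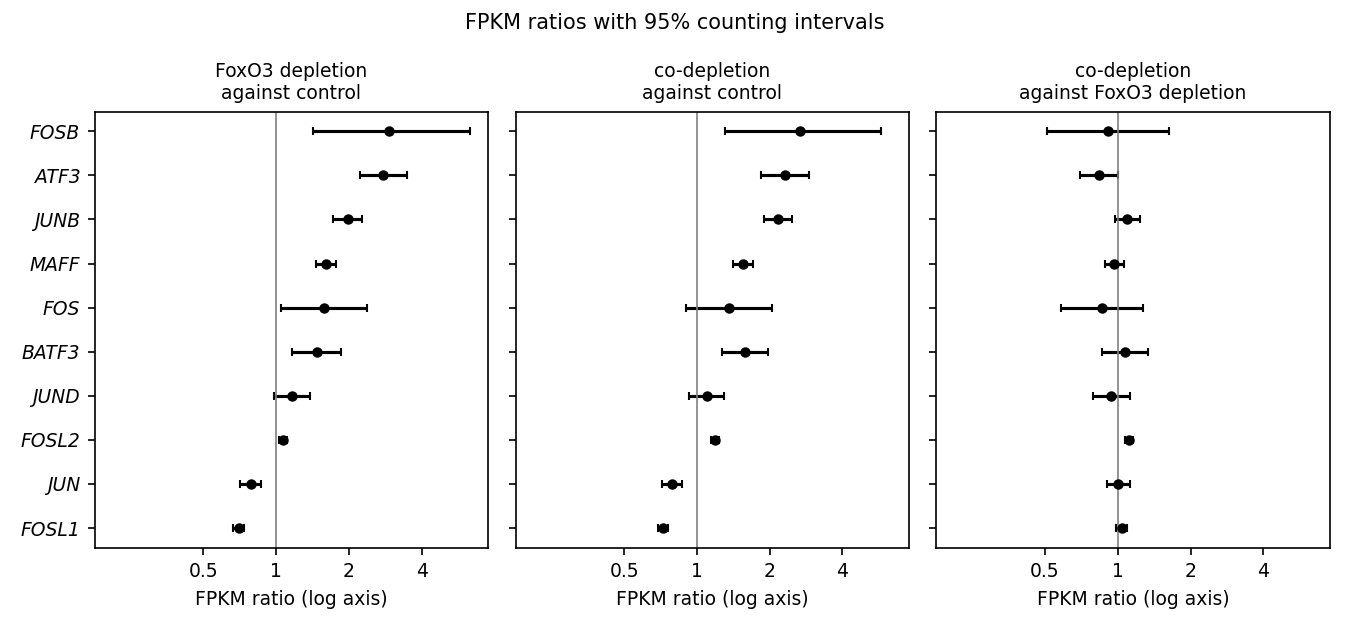
FPKM ratios (log axis) of the 10 genes in the 3 comparisons, with bars for 95% counting intervals on the smallest whole reads. JUN and FOSL1 lie below 1 in both comparisons with the control, ATF3 and JUNB near or above 2, and in the comparison of the depleted libraries only the interval of FOSL2 lies clear of 1.

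ATF3 and MAFF passed the 1.5-fold rule upward in both depleted libraries, and BATF3 only after co-depletion, with log2 ratios of 0.50 and 0.59. ATF3, a stress-induced factor that represses as a homodimer and can pair with JUN proteins, stood at 6.84 FPKM in the control, 18.9 after FoxO3 depletion and 15.8 after co-depletion. The ratio to control was 2.76 (2.21 to 3.46) after FoxO3 depletion. Co-depletion gave a ratio of 2.31 (1.84 to 2.90). In the FoxO3 depletion its log2 ratio of 1.34 was exceeded by 0.22% of the 12649 genes analysed, those with a GENCODE 29 name and a mean of at least 1 FPKM. JUNB, with a log2 ratio of 0.93, was exceeded by 0.85%.

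MAFF, a small MAF protein that has no activation domain and works in dimers with NFE2-type and BACH proteins, stood at 28.0 FPKM in the control, 44.9 after FoxO3 depletion and 43.4 after co-depletion. Its ratios were 1.61 (1.46 to 1.77) and 1.55 (1.41 to 1.71). BATF3, a BATF-family partner of JUN proteins best known from dendritic cells, stood at 7.55, 11.1 and 11.9 FPKM, with ratios of 1.47 (1.16 to 1.86) and 1.58 (1.26 to 1.97). For both genes the control was the low library and the depleted libraries did not differ beyond counting error.

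Of the 9 members with a mean of at least 1 FPKM, 3 were at least 1.5-fold higher after FoxO3 depletion (JUNB, ATF3 and MAFF) and 0 were lower. Over all 12649 analysed genes 4.0% were called higher and 16.7% lower. In the co-depletion 4 of 9 were higher (the same genes and BATF3) and 0 lower, where 4.02% of all genes were called higher and 12.3% lower. At 2-fold, 1 member (ATF3) was higher after FoxO3 depletion, against 0.672% of all genes, and 2 (ATF3 and JUNB) after co-depletion, against 0.625%. The median log2 ratio of the 9 genes was 0.50 after FoxO3 depletion and 0.35 after co-depletion, against -0.07 and -0.06 over all genes. The members were chosen with earlier results of these data known, so a difference from all genes may in part come from that choice. Both comparisons use the same control library, so their likeness is no independent evidence. Counted by interval instead, 7 of the 10 members lay above 1 and 2 below after FoxO3 depletion, and 6 above and 2 below after co-depletion. With JUND at 6 times its smallest reads, 8 and 7 lay above. Of 12645 genes with a mean of at least 1 FPKM, on smallest whole reads, 23.4% lay above 1 in either comparison, and 33.3% and 31.3% below. FOSB, counted among the 10 members, is below that mean. The shares of all genes were not computed at multiples of the reads, so the counts of 8 and 7 have no like share beside them.

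GC content moved with the ratios in these libraries and the members are GC-rich, from 51.0% for ATF3 to 69.7% for JUND, against a median of 49.7% over all genes. The decile of genes lowest in GC had a median log2 ratio of -0.64 after FoxO3 depletion and -0.48 after co-depletion, while in the deciles that hold the members it lay between 0.04 and 0.07 and between 0.02 and 0.10. The share of all genes called higher in the richest decile, where JUNB, JUND and MAFF lie, was 6.33% after FoxO3 depletion and 7.28% after co-depletion. With the running median over GC content subtracted, ATF3 had log2 ratios of 1.28 and 1.08 and JUNB 0.95 and 1.01. MAFF went from 0.66 and 0.62 to 0.63 and 0.51, and BATF3 after co-depletion from 0.59 to 0.54, so that 2 of 9 members were then called higher after co-depletion. FOSL1 went to -0.59 and -0.58, and the first of these passes 1.5-fold downward. No share of all genes is given on the adjusted scale, so counts after GC adjustment, here and below, lack a like share.

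**Figure D3:**
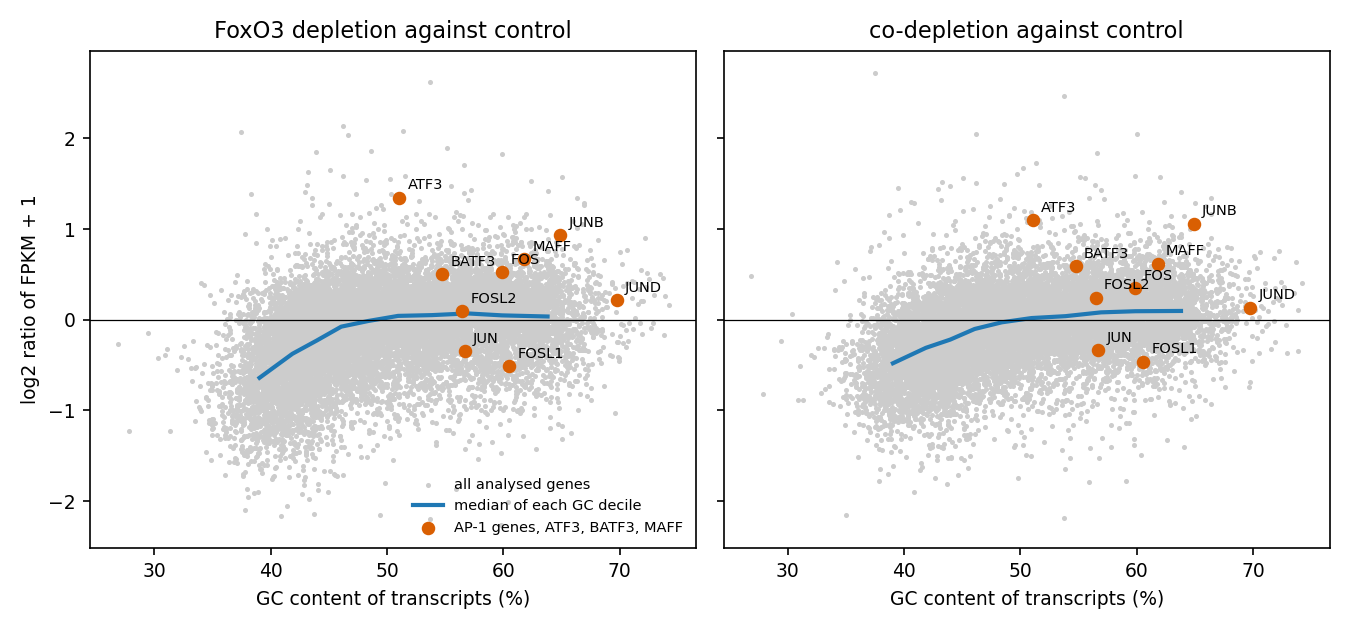
Log2 ratio of FPKM + 1 against the GC content of transcripts (%) for all analysed genes (grey), the median of each GC decile (line) and the 9 measured members (orange), in both comparisons with the control. The members lie where the line is close to 0, with ATF3 and JUNB far above it and JUN and FOSL1 below it.

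The comparison of the depleted libraries shows what went with adding Geminin depletion to FoxO3 depletion. Of the 9 measured members 0 were 1.5-fold apart, where 1.35% of all genes were higher and 0.617% lower after co-depletion. FOSL2 was the only member whose interval lay clear of 1, at 1.11 (1.07 to 1.16), and of all genes 12.5% lay above 1 and 8.27% below. ATF3 had the lowest ratio, 0.83 (0.70 to 1.0), and FOSB the widest interval, 0.91 (0.51 to 1.62). For JUNB the ratio was 1.09 (0.97 to 1.23), and for FOSL1 1.04 (0.98 to 1.09).

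The summed FPKM of the 7 FOS and JUN genes was 590.2 in the control, 533.9 after FoxO3 depletion and 550.8 after co-depletion, that is 90.5% and 93.3% of control. Its make-up differed more than its size. FOSL1 held 46.4% of the sum in the control, 35.9% after FoxO3 depletion and 36.0% after co-depletion. JUNB held 2.25% in the control, 4.93% and 5.23%, and JUND 17.8%, 22.9% and 20.9%. The 4 FOS genes summed to 403.0, 331.4 and 352.6 FPKM, and the 3 JUN genes to 187.1, 202.5 and 198.1, so that FOS-family RNA exceeded JUN-family RNA 2.15-fold in the control, 1.64-fold after FoxO3 depletion and 1.78-fold after co-depletion. FOSL1 exceeded ATF3 40.0-fold in the control, 10.1-fold after FoxO3 depletion and 12.6-fold after co-depletion. These are RNA shares, which need not be the shares of protein or of dimers.

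**Figure D4:**
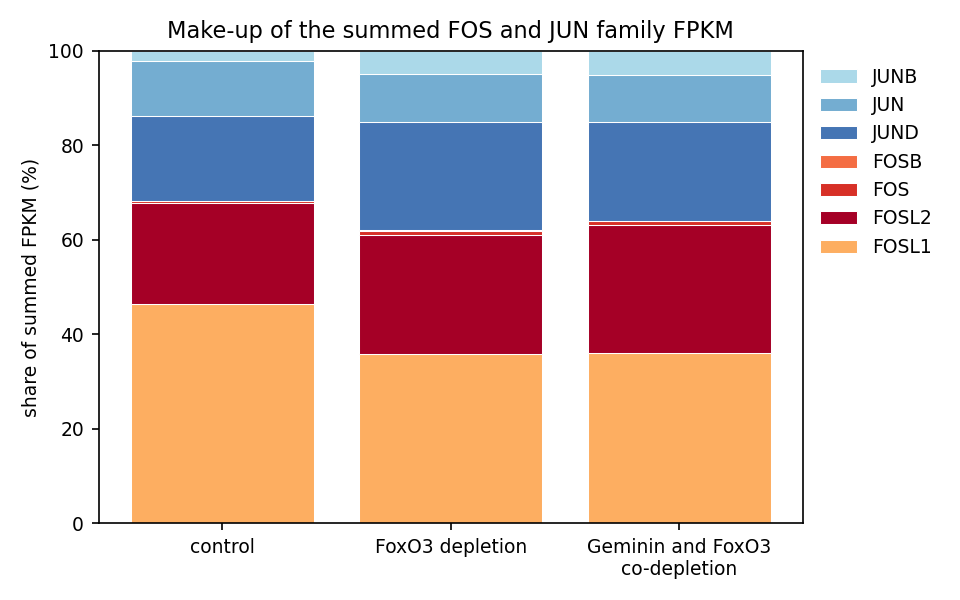
Share (%) of each gene in the summed FPKM of the 7 FOS and JUN genes, 1 bar per library. FOSL1 takes up 46.4% of the control bar and 35.9% and 36.0% of the bars of the depleted libraries, and FOS and FOSB are thin lines.

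Of 30 other bZIP factors measured, 2 were higher and 6 lower after FoxO3 depletion and 2 higher and 5 lower after co-depletion, with medians of 0.10 and 0.06. The higher share was 6.67% in both, against 4.0% and 4.02% of all genes. In both comparisons the 2 higher genes were CEBPD and DDIT3, which is given below. CEBPD stood at 7.94 FPKM in the control, 14.0 after FoxO3 depletion and 13.5 after co-depletion. The lower shares, 20.0% and 16.7%, are near the 16.7% and 12.3% of all genes. After GC adjustment 3 were higher and 7 lower, and 2 higher and 4 lower. BACH1, a repressor that pairs with small MAF proteins, had the log2 ratio farthest from 0, at 47.8 FPKM in the control, 18.2 after FoxO3 depletion and 19.4 after co-depletion. The other small MAF genes were above control without reaching 1.5-fold, MAFG at 35.7, 50.5 and 48.4 FPKM and MAFK at 13.6, 18.8 and 19.5. ATF2, a JUN partner, stood at 24.8, 11.7 and 14.5 FPKM, and the cyclic AMP-responsive factors CREB1 at 34.2, 17.3 and 20.2 and CREB5 at 7.07, 3.46 and 3.29. BACH1, ATF2 and CREB1 are AT-rich. Their log2 ratios after FoxO3 depletion went from -1.35, -1.02 and -0.94 to -0.98, -0.75 and -0.69 after GC adjustment. For BACH1 the log2 ratio after co-depletion went from -1.26 to -0.97.

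Upstream, genes of the MAP kinase cascades were 1 higher and 4 lower of 28 after FoxO3 depletion, and 0 and 3 after co-depletion (medians -0.01 and 0.03). The higher shares were 3.57% and 0%, against 4.0% and 4.02% of all genes. The lower shares, 14.3% and 10.7%, are near the 16.7% and 12.3% of all genes. After GC adjustment 3 were higher and 3 lower after FoxO3 depletion, and 0 higher and 1 lower after co-depletion. MAPKAPK2, a kinase downstream of p38, stood at 137.8 FPKM in the control, 80.8 after FoxO3 depletion and 84.2 after co-depletion. The p38 activator MAP2K3 stood at 82.1, 125.6 and 115.8 FPKM, and the ribosomal S6 kinases RPS6KA5 at 4.60, 2.07 and 2.31 and RPS6KA3 at 61.7, 38.9 and 39.0. The RPS6KA3 log2 ratio after FoxO3 depletion went from -0.65 to -0.16 after GC adjustment.

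Serum response factor and its partners drive FOS and EGR1 transcription. Of 6 measured, 3 were lower and 0 higher in each comparison with the control, with medians of -0.33 and -0.13. Over all genes 16.7% were called lower after FoxO3 depletion and 12.3% after co-depletion. After GC adjustment 3 of the 6 were lower after FoxO3 depletion and 1 was lower after co-depletion. ELK3, a ternary complex factor that can repress, stood at 154.7, 66.8 and 67.5 FPKM. ELK4 stood at 23.4, 13.9 and 15.1, the coactivator MRTFB at 9.24, 4.97 and 5.79, and SRF itself was above control at 66.6, 95.4 and 95.6.

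Other immediate early genes, which respond to the same stimuli as FOS and JUNB, were 7 higher and 1 lower of 20 after FoxO3 depletion and 6 higher and 1 lower after co-depletion, with medians of 0.38 and 0.46. The higher share after FoxO3 depletion was 35.0%, against 4.0% of all genes. The members and all lists, those above and below included, were chosen with earlier results of these data known. An excess or shortfall against all genes may in part come from that choice. The zinc finger factor EGR1 stood at 5.58 FPKM in the control, 12.1 after FoxO3 depletion and 11.4 after co-depletion. The MAP kinase phosphatase DUSP1 had ratios of 3.94 (3.49 to 4.45) and 3.13 (2.77 to 3.54), and the matricellular genes CYR61 and CTGF, which YAP also drives, 2.70 and 1.91 after FoxO3 depletion and 2.52 and 1.74 after co-depletion.

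Genes known as AP-1 targets were 9 higher and 2 lower of 23 in each comparison with the control, with medians of 0.42 and 0.52. The higher share was 39.1% in both, against 4.0% and 4.02% of all genes. The lower share was 8.70% in both, against 16.7% and 12.3% of all genes. After GC adjustment 11 and 12 were higher and 2 lower in each. The cytokine genes IL6 and IL11 had ratios of 5.0 and 2.93 after FoxO3 depletion and 4.71 and 2.48 after co-depletion, and tissue factor, F3, had 3.14 and 2.97. Many of these targets are also driven by NF-kB or YAP. The lower targets were MMP1, an interstitial collagenase with a classical AP-1 site, at 32.0, 14.2 and 16.4 FPKM, and the metallothionein MT2A at 740.8, 365.3 and 340.7. These last were named because there were only 2.

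ATF3 is a known target of the integrated stress response. Of 12 genes of that response 4 were higher and 1 lower after FoxO3 depletion and 1 higher and 0 lower after co-depletion, with medians of 0.38 and 0.37. This list overlaps others above, since DDIT3 and ATF4 are also counted among the other bZIP factors and PPP1R15A among the immediate early genes. The higher shares were 33.3% and 8.33%, against 4.0% and 4.02% of all genes, and after GC adjustment 5 and 2 were higher and 0 lower. CHAC1, a glutathione-degrading enzyme, stood at 5.62 FPKM in the control, 10.1 after FoxO3 depletion and 8.90 after co-depletion. DDIT3, the bZIP factor CHOP, stood at 4.59, 7.58 and 7.61, PPP1R15A, a phosphatase subunit that ends the response, at 52.5, 84.6 and 71.7, and SESN2 at 3.89, 6.49 and 5.88. ATF4, which activates ATF3, stood at 97.0, 133.4 and 119.9 FPKM, below 1.5-fold in both comparisons. Its RNA level says little of its activity, which is set at translation.

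**Figure D5:**
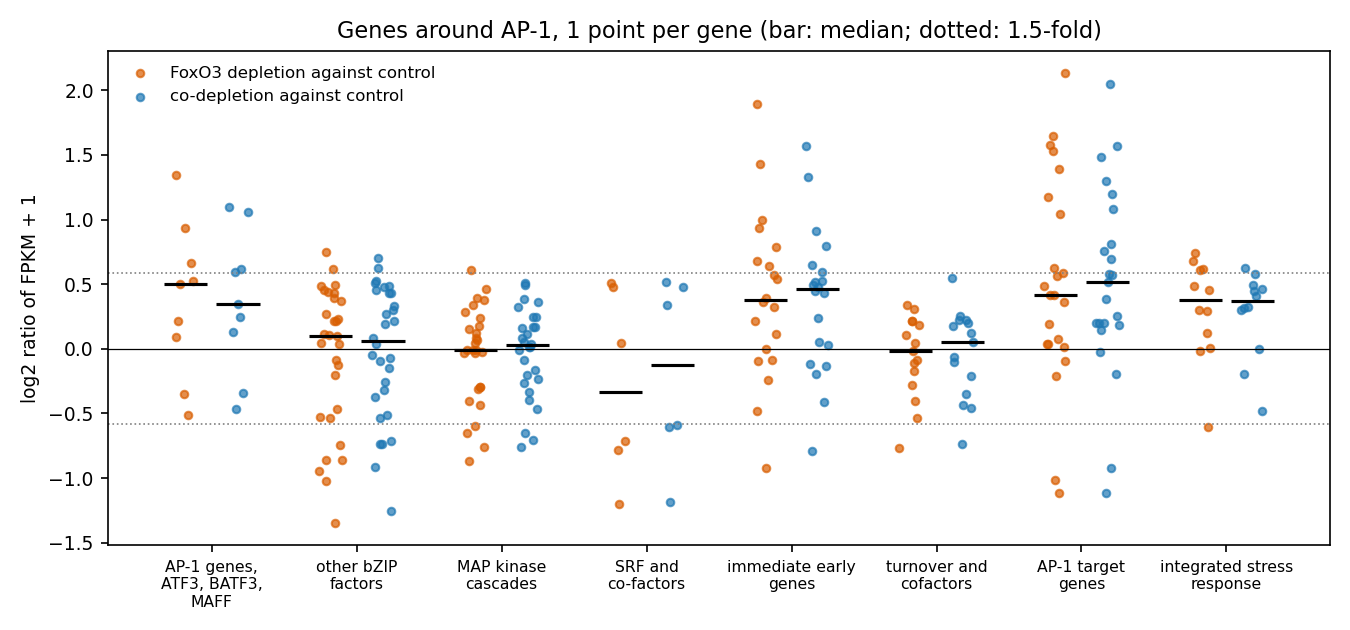
Log2 ratio of FPKM + 1 for each gene of the AP-1 set and 7 related lists, with 1 point per gene in each comparison with the control, black bars for medians and dotted lines at 1.5-fold. The medians of the immediate early, AP-1 target and stress response lists lie at or above 0.37, and those of the MAP kinase, turnover and other bZIP lists between -0.02 and 0.10.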

How the data were processed

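RNA of 3 MDA-MB-231 cultures was analysed, 1 library per group, and groups follow the sample titles and the design text. The deposited values are FPKM per Ensembl gene, computed by the authors from reads aligned with TopHat2 2.0.9, per the submitters' processing notes. How reads were counted, with which annotation, build and strand setting, was not given in the sources used here. GENCODE 29 matched 45342 of 48162 identifiers and gave symbols, mean transcript length and GC content.

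FPKM times length in single-transcript genes takes whole multiples of 1 read's worth, which gave the library totals. The smallest whole reads in proportion to the values, up to 60000 in the library with the fewest, were found for 99.98% of 12641 genes with a mean of at least 1 FPKM and values above 0, within the rounding of 10 significant digits. True reads can be a multiple of these, and values with few digits can match whole reads by chance.

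Ratios are log2 of FPKM + 1, over 12649 named genes with a mean of at least 1 FPKM, with a size rule of 1.5-fold and no test. Alternatives were a pseudocount of 0.1 or 0.5, no minimum or a minimum mean of 5 FPKM, TPM or median-ratio scaling, size rules at a log2 ratio of 1 and of 0.32, and subtraction of the running median over 50 bins of GC content, then also of length. Reads at the multiple nearest the GENCODE length were tried for the intervals after the data were seen. The members and lists were chosen with earlier results of these data known. Named genes are the 10 members, FOXO3 and GMNN, up to 4 genes per list with the largest ratio to control, and the 3 genes nearest in pattern to ATF3 and to FOSL1. Some genes that this rule names are not reported here. Any other gene named was chosen after its values were seen. The scripts used Python 3.11.15, pandas 2.3.3, NumPy 2.4.6 and SciPy 1.17.1, and were tested on simulated data.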

Additional observations from a re-analysis of the deposited data

How the results depend on the processing

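The count of members at least 1.5-fold higher after FoxO3 depletion was 3, and lay between 3 and 4 under the alternatives of pseudocount, minimum, scaling and GC content. It was 1 under the 2-fold rule and 5 under the rule at a log2 ratio of 0.32. In the co-depletion the count was 4. It was 2 after GC adjustment, 2 after adjustment for GC and length and 2 under the 2-fold rule, and lay between 3 and 5 otherwise. Between the depleted libraries 0 members were apart under every alternative run, the rule at a log2 ratio of 0.32 included. The member median after FoxO3 depletion was 0.50 and lay between 0.36 and 0.58 under the alternatives. After co-depletion it was 0.35 and lay between 0.23 and 0.43. Between the depleted libraries it was 0.01 and lay between -0.03 and 0.03. These moves are less than the counting interval of the middle member. After co-depletion that member is FOS, whose interval is wide (0.90 to 2.05), so this is a loose limit. Of 27 member ratios, GC adjustment moved 4 and median scaling 3 beyond their counting intervals, all of them ratios of FOSL1 or FOSL2, whose read numbers are the highest, and 0 called ratios changed sign under any alternative. With reads at the multiple nearest the GENCODE length, an alternative added after seeing the data, the interval of JUND moved above 1 in both comparisons with the control, and no other member's interval changed sides. Depth limits FOS and FOSB most, with at most 55 and 27 reads. No paired analysis was possible because each group holds 1 library.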

Other observations

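Genes that act on AP-1 proteins after synthesis, 15 in all, were 0 higher and 1 lower in each comparison with the control, with medians of -0.02 and 0.05. The higher share was 0% in both, against 4.0% and 4.02% of all genes. The lower share was 6.67% in both, against 16.7% and 12.3% of all genes. COPS5, a signalosome subunit that binds JUN, stood at 26.4 FPKM in the control, 17.8 after FoxO3 depletion and 19.3 after co-depletion, and DET1, of the ligase complex that degrades JUN, at 3.06, 2.06 and 1.96.

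Among the 9825 genes whose mean reached 5 FPKM, the pair of log2 ratios to the control nearest to that of ATF3 belonged to YRDC, at 16.0 FPKM in the control, 41.1 after FoxO3 depletion and 36.1 after co-depletion. The next were RPL13AP20, a pseudogene whose reads cannot be told apart with certainty from those of its parent gene, and the growth factor CSF2, at 3.96, 11.99 and 10.4 FPKM. Nearest to FOSL1 were ZNF514 (10.4, 6.99 and 7.23 FPKM), DHODH (8.42, 5.64 and 5.80) and MGME1 (40.2, 28.0 and 28.7). Likeness here is the distance between a pair of ratios that share 1 control library, over 3 libraries.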
